A study of Mus musculus with 8 samples.

Results

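Islets of MIP1-CreERT mice, called the BKO model, were compared with islets of Ngn3-Cre mice, called the EKO model, across all genes, with Sirt6 status (knockout or control) as a blocking factor. All 8 of the 8 libraries of the study entered, 4 from each model, and none was chosen by a measured value. Each model held 2 control and 2 knockout libraries. The libraries labelled BKO came from MIP1-CreERT Sirt6 f/f mice, taken 2 weeks after tamoxifen. Of the BKO controls, replicate 1 was MIP1-CreERT Sirt6 f/+ and replicate 2 was MIP1-CreERT Sirt6 +/+. The libraries labelled EKO came from Ngn3-Cre Sirt6 f/f mice and their controls from Ngn3-Cre Sirt6 +/+ mice. All mice were males aged 8 to 9 weeks on a mixed background, and every library carried a Cre allele, so the comparison sets a Cre line against another and has no Cre-free group. Islets were purified after collagenase digestion and kept for 4 h in RPMI with 10% serum, and about 100 ng of RNA went into each stranded poly(A) library.

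MIP1-CreERT is a Cre recombinase fused to the ligand-binding domain of an oestrogen receptor and driven by a mouse insulin promoter, so it acts in beta cells once tamoxifen is given. Ngn3-Cre is driven by regulatory sequence of Neurog3, the transcription factor of endocrine progenitors, and acts without a drug in the cells that give rise to all islet endocrine types. Mice published as MIP1-CreERT carry a human growth hormone minigene in the transgene. The labels do not say whether the present line does, a human transcript has no row in a mouse gene table, and the part of such a minigene in the results was not tested. Whether controls received tamoxifen is not given. The Cre line, the drug, the litter, the genetic background, the read depth and the sequencing run differ between the models or may do so. The effects of these cannot be told apart.

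Lists of genes that growth hormone, interferons and NF-kB are known to raise are used in the results, and no signalling was measured. Growth hormone and prolactin receptors act through JAK2 and the transcription factor STAT5, which raises feedback inhibitors such as Cish and Socs2 and, in beta cells of pregnant mice, the serotonin-making enzyme Tph1. Interferons act through factors that include STAT2 and IRF9, which raise guanylate-binding proteins, antigen-processing genes and chemokines such as Cxcl10. The NF-kB factors raise adhesion molecules, cytokines and their own inhibitor Nfkbia. STAT factors bind the palindrome TTCNNNGAA, the interferon-stimulated response element holds GAAANNGAAA, and NF-kB binds sites such as GGGANTTTCC.

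The promoters of 5 genes that were higher in the BKO model are shown for these letters, from RefSeq on build GRCm38.p6, 250 bases before to 50 after the annotated start, 5′ to 3′ on the strand of the gene. Capitals mark the motif named for each gene, found on either strand, and a match is a description of the letters only. The 5 are examples that hold the motif. Among other called genes, no TTCNNNGAA was found for Tph1 or Ehhadh and no GGGANTTTCC for Tnf or Icam1. No GAAANNGAAA was found for Irf9, H2-D1 or Psmb8. Cish, at chr9:107296409-107296708 (plus strand), held 2 copies of TTCNNNGAA. Cxcl10, at chr5:92348840-92349139 (minus strand), Gbp5, at chr3:142496684-142496983 (plus strand), and Rsad2, at chr12:26456403-26456702 (minus strand), each held 1 copy of GAAANNGAAA, read on the opposite strand in Gbp5 and Rsad2. Nfkbia, at chr12:55492598-55492897 (minus strand), held 1 copy of GGGANTTTCC on the opposite strand. Gbp5 also held 2 copies of TTCNNNGAA and 1 of GGGANTTTCC, which are left in small letters.
Cish: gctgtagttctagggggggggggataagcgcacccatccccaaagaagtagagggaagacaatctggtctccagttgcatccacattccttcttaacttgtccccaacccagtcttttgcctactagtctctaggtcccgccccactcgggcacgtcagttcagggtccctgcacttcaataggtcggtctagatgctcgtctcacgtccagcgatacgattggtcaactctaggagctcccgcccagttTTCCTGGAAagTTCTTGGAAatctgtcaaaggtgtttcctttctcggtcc
Cxcl10: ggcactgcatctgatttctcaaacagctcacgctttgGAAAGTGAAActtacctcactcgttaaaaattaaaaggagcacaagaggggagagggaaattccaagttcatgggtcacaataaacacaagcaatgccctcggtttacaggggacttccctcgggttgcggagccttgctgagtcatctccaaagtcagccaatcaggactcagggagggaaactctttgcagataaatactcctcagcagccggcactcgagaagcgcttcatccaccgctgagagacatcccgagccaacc
Gbp5: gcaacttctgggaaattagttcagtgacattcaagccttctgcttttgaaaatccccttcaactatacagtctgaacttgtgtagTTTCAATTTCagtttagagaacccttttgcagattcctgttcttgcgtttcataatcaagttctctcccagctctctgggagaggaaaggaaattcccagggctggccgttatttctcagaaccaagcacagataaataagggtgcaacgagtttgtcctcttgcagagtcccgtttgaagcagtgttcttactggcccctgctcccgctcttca
Rsad2: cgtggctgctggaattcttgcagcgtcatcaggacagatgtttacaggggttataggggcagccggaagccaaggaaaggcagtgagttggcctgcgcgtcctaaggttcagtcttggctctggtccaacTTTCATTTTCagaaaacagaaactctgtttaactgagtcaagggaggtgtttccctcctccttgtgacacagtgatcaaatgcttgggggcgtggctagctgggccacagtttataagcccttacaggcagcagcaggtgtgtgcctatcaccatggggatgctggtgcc
Nfkbia: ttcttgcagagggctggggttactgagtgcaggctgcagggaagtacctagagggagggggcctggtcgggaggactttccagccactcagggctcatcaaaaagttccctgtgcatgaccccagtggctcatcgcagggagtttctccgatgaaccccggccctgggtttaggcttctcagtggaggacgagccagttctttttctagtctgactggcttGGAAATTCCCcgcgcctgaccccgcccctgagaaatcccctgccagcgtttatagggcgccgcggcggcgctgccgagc

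A promoter window was at hand for 10534 of the 15041 genes tested. Over all of these, 8.63% held TTCNNNGAA, 3.72% held GAAANNGAAA and 0.551% held GGGANTTTCC, counting both strands and any window of a gene. Of 20 genes of the growth hormone and prolactin list with a window, 5 (25.0%) held TTCNNNGAA. Of 31 interferon genes with a window, 17 (54.8%) held GAAANNGAAA and 9 (29.03%) held TTCNNNGAA. Of 19 genes of the NF-kB list with a window, 5 (26.3%) held GGGANTTTCC. Among the genes called higher in the BKO model, 19 of 80 with a window (23.8%) held TTCNNNGAA and 9 (11.3%) held GAAANNGAAA, and among those called lower, 1 of 21 (4.76%) held each.

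Depth differed with the model. Reads assigned to genes numbered 37302246 to 44442165 in BKO-model libraries and 22330252 to 23673180 in EKO-model libraries, a ratio of means of 1.79. Reads outside annotated genes made up 10.2% ± 0.629 (SD, n = 4) of the BKO-model libraries and 8.87% ± 0.529 (n = 4) of the EKO-model libraries, a difference with an exact two-sided permutation p of 0.0286, the smallest 4 against 4 can give, and 0.171 after adjustment over 6 such shares. The second principal component of log2 CPM (26.5% of variance) separated the models, while the first (36.5%) spread the EKO-model libraries apart from each other. Sirt6, the targeted gene, read 18.8, 12.6, 16.8 and 22.8 CPM in the BKO model and 24.4, 16.96, 24.2 and 21.6 CPM in the EKO model, as CPM, the reads of a gene scaled to the size of its library, in the order control 1, control 2, knockout 1 and knockout 2, which is kept throughout. The libraries labelled knockout overlapped their controls in both models, so the counts do not check those labels, and which exons were deleted is not stated. The log2 difference of Sirt6 between models was -0.30 (SE 0.20, edgeR adjusted p = 0.478).

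Of 15041 genes tested, 171 differed between the models, or 1.14% (edgeR quasi-likelihood test, Benjamini-Hochberg adjusted p under 0.05). Of these, 137 were higher in the BKO model (0.911% of all genes) and 34 lower (0.226%), with median log2 differences, BKO model over EKO model, of 1.70 and -1.03 against -0.04 over all genes. All 4 BKO-model values exceeded all 4 EKO-model values in 925 genes (6.15%), and the reverse held in 714 genes (4.75%). Of the genes called, 135 of the higher and 33 of the lower did not overlap. Unadjusted edgeR p fell under 0.05 in 1207 higher and 1280 lower genes, 16.5% of all genes. DESeq2 called 1167 genes (7.76%) and limma-voom 157 (1.04%), and 139 genes were called by all 3 tools. Counts within lists are to be read against these shares. The lists were chosen with earlier results of these data known, so an excess of calls in a list may follow in part from that choice. The count of calls rested on single libraries. It was 53 without BKO control 1, 42 without BKO control 2, 36 without BKO 1, 18 without BKO 2, 309 without EKO control 1, 158 without EKO control 2, 26 without EKO 1 and 50 without EKO 2. All 171 genes kept their direction in each of these fits, which follows in part from their choice on all 8 libraries. Of 55 called genes followed one by one, 11 were called in all 8 fits with 1 library left out: Esr1, Gbp8, Gbp4, Cxcl10, Irf9, Ddx58, Dnahc8, Serpina3h, Cldn8, Ripk2 and Rps2. For the others the number of such fits is given with the gene. Limma-voom did not call Cldn8 (limma-voom adjusted p = 0.116) or Serpina3h (0.0685). Nor did it call Tph1, Fbxw24, Fbxw15, Scube2, Tmem181b-ps, Matn2 or Itpr2. Within each model the deviations of same-numbered control and knockout were correlated, at 0.31 in the BKO model and 0.49 in the EKO model. Across the models such correlations ran from -0.25 to 0.41, the highest between the control groups. The test of 4 against 4 treats all libraries as separate. With same-numbered counts of a model summed, 2 sums against 2, edgeR called 3 genes, Gbp8, Dnahc8 and Serpina3h, and 1169 had an unadjusted p under 0.05. All 171 kept their direction there too, which again follows in part from their choice on these libraries.

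**Figure D1:**
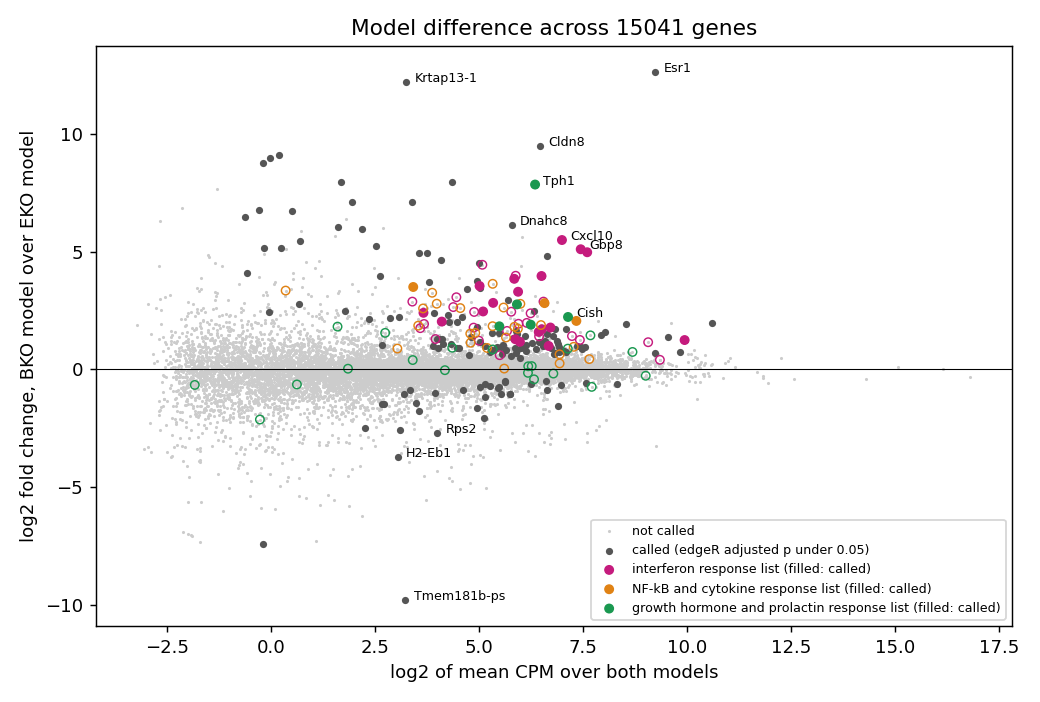
Each point is 1 of 15041 genes, placed by the log2 of its mean CPM over both models and by its log2 fold change, BKO model over EKO model. Grey genes were not called and dark ones were (171), with the interferon, NF-kB and growth hormone lists ringed in colour. All 41 interferon genes and all 27 NF-kB genes lie above 0.

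Esr1, the oestrogen receptor alpha, had the largest difference of the 171. It read 555, 1475, 1696 and 1079 CPM in the BKO model and 0.494, 0.0465, 0.175 and 0 CPM in the EKO model. Every BKO-model library had many reads, and every EKO-model library had a trace or no read. The log2 difference was 12.61 (SE 0.84, edgeR adjusted p = 0.003101). CreERT carries the coding sequence of an oestrogen receptor ligand-binding domain, and counts per gene cannot separate transgene reads from those of the endogenous gene. None of the 13 tested genes among the 18 annotated around Esr1 was called, with log2 differences of -1.38 to 0.35.

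The oestrogen list gave few calls beside Esr1. Of 12 genes of the oestrogen list tested, 2 were called higher in the BKO model (16.7%, against 0.911% of all genes), Esr1 itself and Xbp1, and the list's median log2 difference was -0.16. Greb1, an oestrogen-induced growth regulator, differed by 0.46 (SE 1.35, edgeR adjusted p = 0.901), and Nrip1, a corepressor of nuclear receptors, by -0.81 (SE 0.41, edgeR adjusted p = 0.364). Ltf, the iron-binding protein lactoferrin, differed by 1.99 (SE 0.96, edgeR adjusted p = 0.354). The models overlapped in all 3 of these genes.

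Some genes downstream of growth hormone and prolactin receptors were higher in the BKO model. Of 25 tested, 5 were called higher (20%, against 0.911% of all genes) and none lower, and the median was 0.40 against -0.04 over all genes. The median was 0.08 within controls and 0.44 within knockouts. The number called was 0 without BKO 2, 1 without BKO 1 or EKO 1, and at most 5 with any 1 library left out. The summed level of the list was 2358, 2931, 3388 and 2639 CPM in the BKO model and 1345, 2589, 1580.1 and 2402 CPM in the EKO model, and EKO control 2 and EKO 2 exceeded BKO control 1. Tph1, tryptophan hydroxylase 1, read 25.5, 335, 198 and 89.7 CPM in the BKO model and 0.123, 0.0929, 0.525 and 2.62 CPM in the EKO model. All BKO-model libraries were above all EKO-model libraries and ranged widely among themselves, with control 1 lowest and control 2 highest. The log2 difference was 7.84 (SE 1.27, edgeR adjusted p = 0.0414). It was called in 1 of the 8 fits with 1 library left out, the one without BKO control 2 (adjusted p = 0.0285), and its adjusted p reached 0.151 in the other 7. Limma-voom gave Tph1 an adjusted p of 0.261.

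Cish, a feedback inhibitor of cytokine receptors that use STAT5, read 147, 211, 290.2 and 276 CPM in the BKO model and 26.4, 42.8, 52.1 and 82.3 CPM in the EKO model. All BKO-model libraries were above all EKO-model ones, with EKO 2 the highest of its model. The difference was 2.22 (SE 0.23, edgeR adjusted p = 0.0102), called in 6 of the 8 fits, and its call ended without BKO 2 (adjusted p = 0.0519) or EKO 1 (0.0510). Socs2, which curbs growth hormone signalling, read 92.6, 118, 158 and 109 CPM in the BKO model and 28.2, 28.3, 25.5 and 46.3 CPM in the EKO model. Its groups did not overlap, with a log2 difference of 1.9 (SE 0.21, edgeR adjusted p = 0.0143), called in 5 of the 8 fits, and its adjusted p reached 0.0571 at most.

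Ehhadh, the bifunctional enzyme of peroxisomal fatty acid oxidation, read 41.9, 74.97, 99.5 and 64.6 CPM in the BKO model and 14.9, 22.96, 18.6 and 21.6 CPM in the EKO model. The lowest BKO-model library, control 1, still exceeded every EKO-model library. The difference was 1.83 (SE 0.26, edgeR adjusted p = 0.0277), called in 3 of the 8 fits. Matn2, an extracellular matrix adaptor, read 53.7, 138, 169 and 58.997 CPM in the BKO model and 21.4, 10.1, 14.1 and 16.2 CPM in the EKO model, with no overlap, and differed by 2.76 (SE 0.46, edgeR adjusted p = 0.0433), called in 1 of the 8 fits.

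The receptors and the transcription factors of the pathway themselves were not called. The prolactin receptor Prlr differed by 0.74 (SE 0.60, edgeR adjusted p = 0.578) and the growth hormone receptor Ghr by -0.74 (SE 0.20, edgeR adjusted p = 0.145). Stat5a and Stat5b differed by -0.04 (SE 0.29, edgeR adjusted p = 0.969) and -0.15 (SE 0.24, edgeR adjusted p = 0.806). Reads of the mouse hormones were few: Gh had 1 to 3 reads in each BKO-model library and 0 to 3 in each EKO-model library, and Prl 0 to 2 and 0 to 12.

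Of the proliferation genes that lie downstream of prolactin in pregnancy, Ccnd2, a D-type cyclin, differed by -0.27 (SE 0.28, edgeR adjusted p = 0.667) and Foxm1, a factor of mitotic genes, by 0.03 (SE 0.31, edgeR adjusted p = 0.976). Bcl6, a transcriptional repressor, differed by 0.40 (SE 0.39, edgeR adjusted p = 0.6596). Men1, which encodes menin, an inhibitor of beta cell growth, differed by 0.13 (SE 0.14, edgeR adjusted p = 0.674).

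Of 14 serotonin and catecholamine genes tested, edgeR called Tph1 alone (7.14%, against 0.911% of all genes called higher), and the median was -0.26. An unadjusted p under 0.05 was found in 4 (against 16.5% of all genes), and DESeq2 called 3 (against 7.76%) and limma-voom 0. Tph2, the neuronal tryptophan hydroxylase, read 10.4, 9.76, 10.1 and 9.34 CPM in the BKO model and 6.54, 2.14, 4.16 and 1.08 CPM in the EKO model. Its BKO-model values lay close together and above all 4 EKO-model values, and the difference was 1.55 (SE 0.50, edgeR adjusted p = 0.20002). Th, tyrosine hydroxylase, which makes catecholamines, read 24.1, 17.3, 54.4 and 77.1 CPM in the BKO model and 38.1, 29.2, 279 and 421 CPM in the EKO model. Within each model the libraries labelled knockout exceeded their controls, the models overlapped, and the difference was -1.56 (SE 0.39, edgeR adjusted p = 0.128). The serotonin receptor gene Htr2b read 0.197, 0.362, 0.254 and 0.385 CPM in the BKO model and 3.21, 0.186, 1.66 and 0.375 CPM in the EKO model, with overlap and a difference of -2.13 (SE 0.89, edgeR adjusted p = 0.294).

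**Figure D2:**
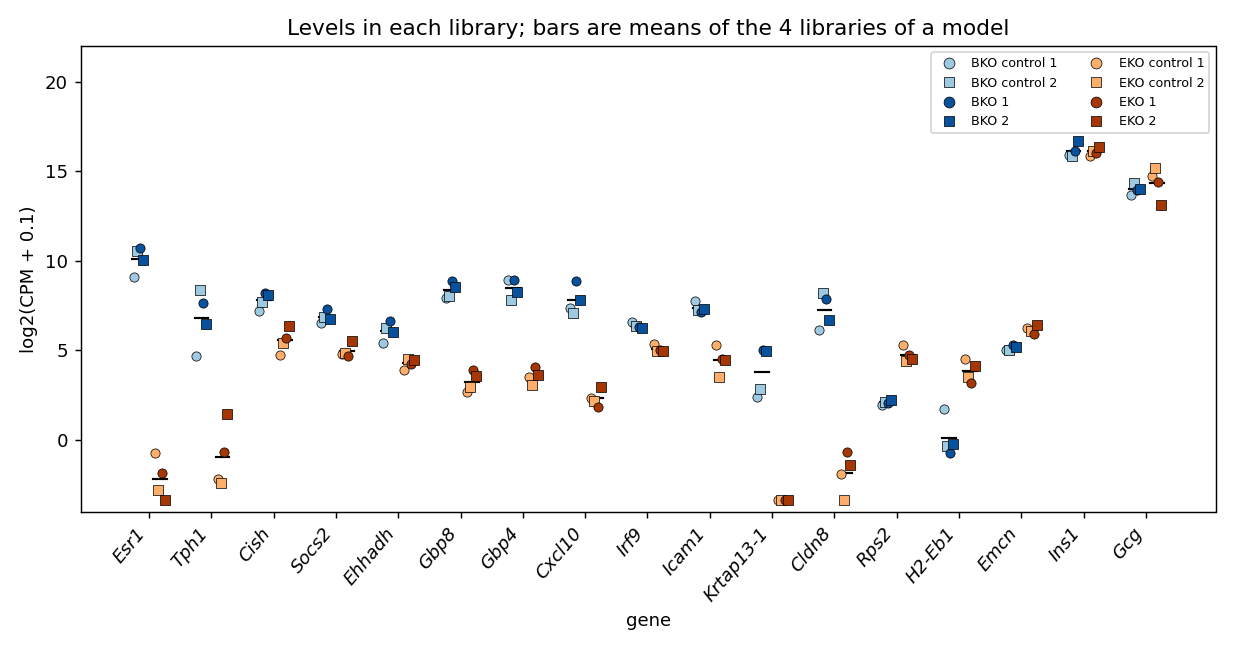
Levels of 17 genes in each library as log2(CPM + 0.1), with a horizontal bar at the mean of the 4 libraries of a model. Esr1, Tph1, Cish, Gbp8 and Krtap13-1 separate the models upward in the BKO model, Rps2, H2-Eb1 and Emcn downward, and Ins1 and Gcg overlap. A value of 0 CPM sits at the lower edge.

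Interferon-response genes were higher in the BKO model, the list with the most calls. Of 41 tested, 18 were called higher (43.9%, against 0.911% of all genes) and none lower, and all 41 log2 differences were above 0. In 37 of the 41, all 4 BKO-model values exceeded all 4 EKO-model values, against 6.15% of all genes, and the median log2 difference was 1.97. The summed level of the list was 8937, 5314, 7384 and 6276 CPM in the BKO model and 2879.7, 1743, 2264 and 2498 CPM in the EKO model. The medians within controls and within knockouts were 2.03 and 2.02. With 1 library left out, the number called ranged from 6 to 26.

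Guanylate-binding proteins, GTPases that attack intracellular pathogens, led the group. Gbp8 read 247, 262, 468 and 377 CPM in the BKO model and 6.25, 7.53, 14.9 and 11.7 CPM in the EKO model. The groups lay far apart, and the log2 difference was 5.1 (SE 0.16, edgeR adjusted p = 3.79e-05), the smallest p of all genes. Gbp4 read 487, 227, 485 and 306 CPM in the BKO model and 11.2, 8.23, 16.98 and 12.5 CPM in the EKO model, likewise far apart, with a log2 difference of 4.97 (SE 0.34, edgeR adjusted p = 0.003101). Gbp5 read 166, 54.4, 127 and 97.9 CPM in the BKO model and 14.6, 8.69, 8.49 and 13.6 CPM in the EKO model, without overlap, with a log2 difference of 3.29 (SE 0.39, edgeR adjusted p = 0.0168), called in 4 of the 8 fits. Of 11 genes named Gbp, 8 were called higher (against 0.911% of all genes), none lower, 10 did not overlap (against 6.15%) and the median was 3.46. These genes lie in clusters of near-identical copies and reads with several alignments were not counted, so the split between members is uncertain.

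Chemokines that draw T cells were among the called genes. Cxcl10 read 168, 138, 466 and 228 CPM in the BKO model and 4.98, 4.41, 3.502 and 7.72 CPM in the EKO model. The highest EKO-model library was far below the lowest BKO-model one, with a log2 difference of 5.49 (SE 0.41, edgeR adjusted p = 0.00371). Cxcl11, which binds the same receptor, differed by 3.84 (SE 0.42, edgeR adjusted p = 0.0124), called in 6 of the 8 fits. Cxcl9, the third of these chemokines, read 188, 0.854, 64.7 and 2.12 CPM in the BKO model and 1.28, 0.139, 0.0438 and 13.4 CPM in the EKO model. Its models overlapped, BKO control 1 and BKO 1 were above the rest, and the log2 difference was 4.44 (SE 2.32, edgeR adjusted p = 0.383). Ccl4, a chemokine of macrophages and T cells, read 4.16, 7.38, 15.7 and 8.83 CPM in the BKO model and 0.329, 0, 0.0438 and 0.1405 CPM in the EKO model, without overlap, with a log2 difference of 5.96 (SE 0.88, edgeR adjusted p = 0.03105), called in 2 of the 8 fits.

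Of the transcription factors of the pathway, Irf9 and Stat2 were called. Irf9, the DNA-binding part of the complex that type I interferons activate, read 95.9, 82.5, 78.1 and 75.8 CPM in the BKO model and 41.7, 30.9, 32.96 and 31.4 CPM in the EKO model. Both models were tight and apart, with a log2 difference of 1.28 (SE 0.12, edgeR adjusted p = 0.00787). Stat2 read 207, 114, 161 and 170.1 CPM in the BKO model and 48.1, 43.9, 46.2 and 52.2 CPM in the EKO model, without overlap, with a log2 difference of 1.78 (SE 0.18, edgeR adjusted p = 0.0102), called in 6 of the 8 fits.

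Antiviral effectors and sensors followed. Rsad2, the antiviral enzyme viperin, read 99.7, 166, 254 and 163 CPM in the BKO model and 14.2, 8.78, 4.99 and 14.8 CPM in the EKO model. EKO 2 was the highest of the EKO model and still below every BKO-model library, with a log2 difference of 3.96 (SE 0.44, edgeR adjusted p = 0.0132), called in 6 of the 8 fits. Ddx58, the RNA sensor RIG-I, read 130.1, 136, 144 and 133 CPM in the BKO model and 66.3, 64.4, 64.7 and 77.7 CPM in the EKO model, without overlap, with EKO 2 above the rest of its model, and differed by 0.99 (SE 0.09, edgeR adjusted p = 0.00787). Oas2, a synthetase whose product activates RNase L, differed by 2.46 (SE 0.34, edgeR adjusted p = 0.0272), called in 2 of the 8 fits, and Mx2, a dynamin-like GTPase, by 2.4 (SE 0.33, edgeR adjusted p = 0.0255), called in 2 of the 8 fits. Isg15, a ubiquitin-like modifier, differed by 2.64 (SE 0.67, edgeR adjusted p = 0.12999) and Ifit1, an RNA-binding antiviral protein, by 1.93 (SE 0.42, edgeR adjusted p = 0.0918), both without overlap and without a call.

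Some genes of antigen presentation were called. H2-D1, a class I heavy chain, read 1571, 1217, 1323 and 1418 CPM in the BKO model and 563, 476, 677 and 634 CPM in the EKO model, without overlap, with a log2 difference of 1.24 (SE 0.14, edgeR adjusted p = 0.0156), called in 3 of the 8 fits. Psmb8, a subunit of the immunoproteasome, read 183, 97.7, 122 and 118 CPM in the BKO model and 41.1, 37.1, 42.9 and 51.97 CPM in the EKO model, without overlap, with a log2 difference of 1.59 (SE 0.22, edgeR adjusted p = 0.024995), called in 4 of the 8 fits. B2m, the light chain, differed by 1.15 (SE 0.36, edgeR adjusted p = 0.187) and H2-K1 by 0.40 (SE 0.21, edgeR adjusted p = 0.376), neither called. Of 26 genes with H2- symbols tested, class I and II together, 5 were called higher (against 0.911% of all genes) and 1 lower (against 0.226%), and these too have close copies. The one that was lower was H2-Eb1, a class II chain of antigen-presenting cells, which read 3.17, 0.699, 0.508 and 0.7703 CPM in the BKO model and 22.96, 11.3, 9.06 and 17.3 CPM in the EKO model. Every EKO-model library exceeded every BKO-model library, with a log2 difference of -3.73 (SE 0.60, edgeR adjusted p = 0.0405), called in 2 of the 8 fits.

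Of the interferon genes, Ifng alone had many reads, in 1 library. Ifnb1 had 6, 7, 3 and 4 reads in the BKO model and 0 in each EKO-model library, and all 11 Ifna genes together had 6, 1, 0 and 0 reads and 0 in each EKO-model library. Ifng, made by T and NK cells, had 972, 2, 62 and 0 reads in the BKO model and 0, 0, 0 and 5 in the EKO model. The BKO-model libraries with the most Ifng reads, control 1 and BKO 1, were those with the highest Cxcl9. Their part in the levels of the interferon list was not tested. The receptor chains Ifnar1 and Ifngr1 differed by 0.23 (SE 0.16, edgeR adjusted p = 0.493) and -0.07 (SE 0.19, edgeR adjusted p = 0.892), and Ifngr2 by 1.33 (SE 0.29, edgeR adjusted p = 0.0916).

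Leukocyte markers were not higher by the test. Of 22 immune genes tested, 1 was called lower, H2-Eb1 (against 0.226% of all genes), none was called higher, and the median was -0.39. Their summed level was 459, 285, 579 and 307 CPM in the BKO model and 942, 329, 427 and 500.1 CPM in the EKO model. Ptprc, the pan-leukocyte CD45, read 39.4, 5.07, 43.9 and 4.43 CPM in the BKO model and 26.9, 3.904, 6.26 and 19.7 CPM in the EKO model. BKO control 1 and BKO 1 were the highest of the 8, and the part of leukocyte RNA in the interferon difference was not tested. C1qa, a macrophage complement gene, read 31.8, 37.4, 83.3 and 70.6 CPM in the BKO model and 113, 62.04, 104 and 89.6 CPM in the EKO model, with overlap, with a log2 difference of -0.83 (SE 0.27, edgeR adjusted p = 0.20002), and Cx3cr1, a chemokine receptor of macrophages, was lower without overlap with a log2 difference of -2.13 (SE 0.66, edgeR adjusted p = 0.1902), not called. In bulk islets, fewer cells of a type and less RNA per cell cannot be told apart.

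NF-kB and cytokine genes lay above 0 throughout, with fewer calls. All 27 tested had log2 differences above 0, 15 did not overlap (against 6.15% of all genes), the median was 1.83 (1.49 within controls and 2.21 within knockouts), and 3 were called higher (11.1%, against 0.911%) and none lower. With 1 library left out the number called ranged from 0 to 13, and DESeq2 called 16 (against 7.76% of all genes). The summed level was 3063, 1789, 1979 and 2105 CPM in the BKO model and 1836, 399, 985 and 470.2 CPM in the EKO model, and EKO control 1 lay above the lowest BKO-model library.

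Icam1, an adhesion molecule for leukocytes, read 213, 150.1, 144 and 161 CPM in the BKO model and 38.9, 11.5, 22.8 and 21.7 CPM in the EKO model. Each BKO-model library exceeded each EKO-model library, with a log2 difference of 2.81 (SE 0.36, edgeR adjusted p = 0.0197), called in 2 of the 8 fits. Tnf, tumour necrosis factor, read 16.5, 14.7, 27.8 and 19.6 CPM in the BKO model and 3.17, 1.25, 1.79 and 0.749 CPM in the EKO model, without overlap, with a log2 difference of 3.5 (SE 0.48, edgeR adjusted p = 0.0264), called in 2 of the 8 fits. Nfkbia, which holds NF-kB in the cytoplasm, read 269.6, 199, 278 and 299 CPM in the BKO model and 86.5, 39.2, 79.01 and 45.6 CPM in the EKO model. EKO control 1 was the nearest to the BKO-model range, without reaching it, with a log2 difference of 2.06 (SE 0.29, edgeR adjusted p = 0.0284), called in 2 of the 8 fits.

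Of the members that were not called, Birc3, an inhibitor of apoptosis, read 149, 133, 154 and 128 CPM in the BKO model and 65.5, 24.5, 43.2 and 21.9 CPM in the EKO model, without overlap, with a log2 difference of 1.88 (SE 0.35, edgeR adjusted p = 0.0577). The neutrophil chemokine Cxcl1 differed by 2.78 (SE 0.74, edgeR adjusted p = 0.143) and the monocyte chemokine Ccl2 by 2.62 (SE 0.61, edgeR adjusted p = 0.111), both without overlap. The cytokine genes Il1b and Il6 overlapped between models, with a log2 difference of 1.52 (SE 0.67, edgeR adjusted p = 0.316) and 1.83 (SE 1.19, edgeR adjusted p = 0.4804). Ripk2, a kinase that links NOD receptors to NF-kB and is no member of the list, read 62.8, 49.9, 62.7 and 61.8 CPM in the BKO model and 19.8, 20.4, 21.4 and 19.4 CPM in the EKO model. Its values were close to each other within each model, with BKO control 2 a little below its group, with a log2 difference of 1.55 (SE 0.11, edgeR adjusted p = 0.003101).

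**Figure D3:**
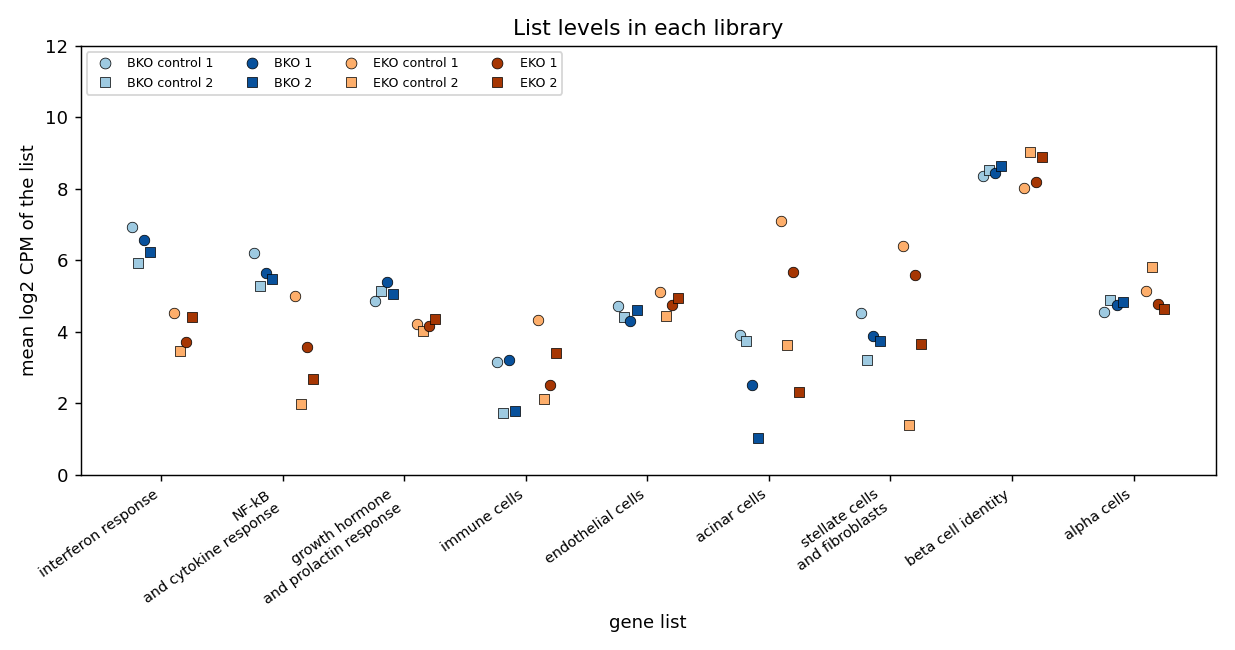
Mean log2 CPM of 9 gene lists in each library. By this mean the interferon, NF-kB and growth hormone lists separate the models in every library, though the summed CPM of the NF-kB and growth hormone lists overlaps. The acinar and stellate lists spread most between the EKO-model libraries, and the immune and beta cell lists overlap.

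Several genes of hair and epithelia that were nearly silent in the EKO model lay near each other on the chromosome. Krtap13-1, a keratin-associated protein of hair, read 5.23, 6.96, 32.1 and 31.6 CPM in the BKO model and 0, 0, 0 and 0 CPM in the EKO model. No EKO-model library had a read, so the BKO-model mean was at least 142-fold higher, taking 3 counts per library as the floor. It was called at an edgeR adjusted p of 0.00585, in 7 of the 8 fits, its call ending without BKO 2 (0.0519). Cldn8, a claudin of epithelial tight junctions, read 71.4, 299, 229.8 and 103 CPM in the BKO model and 0.165, 0, 0.525 and 0.281 CPM in the EKO model, with a log2 difference of 9.5 (SE 0.85, edgeR adjusted p = 0.00787). Krtap13 had no read in the EKO model either, and its BKO-model mean was at least 16.998-fold higher, called in 2 of the 8 fits. Krtap14, also without a read there, was at least 14.7-fold higher, called in 2 of the 8 fits.

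In the gene order of GRCm38.p6, Krtap13-1, Krtap13, Krtap14 and Cldn8 lie close together on chromosome 16. Counted in genes from Krtap13-1, Krtap13 is at place 1, Krtap14 at place 4 and Cldn8 at place -6. The genes between them did not pass the filter. Of the 20 annotated genes around Krtap13-1, 5 passed the filter on low counts. Krtap13, Krtap14 and Cldn8 passed it through their BKO-model reads, so their direction was fixed by the filter and their number is no support. The remaining pair, Bach1, a transcriptional repressor of haem oxygenase, and B130034C11Rik, differed by -0.59 (SE 0.20, edgeR adjusted p = 0.222) and 0.36 (SE 0.49, edgeR adjusted p = 0.758).

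A similar run of F-box genes lay on chromosome 9. Fbxw24 read 3.68, 14.1, 41.8 and 23.7 CPM in the BKO model and 0.206, 0.0929, 0.131 and 0.0468 CPM in the EKO model, without overlap, with a log2 difference of 7.12 (SE 0.79, edgeR adjusted p = 0.0132), called in 5 of the 8 fits. Its neighbour Fbxw15 read 0.897, 4.996, 15.2 and 9.63 CPM in the BKO model and 0.0411, 0.0465, 0 and 0.0936 CPM in the EKO model, without overlap, with a log2 difference of 7.09 (SE 0.93, edgeR adjusted p = 0.0223), called in 3 of the 8 fits. Fbxw18, on the other side, read 1.18, 1.45, 1.73 and 2.55 CPM in the BKO model and 0.0411, 0.0929, 0.0438 and 0 CPM in the EKO model, without overlap, with a log2 difference of 5.13 (SE 0.71, edgeR adjusted p = 0.0264), called in 3 of the 8 fits. F-box proteins present substrates for ubiquitination. Fbxw13, a further member of the run, had no read in the EKO model and was not called (edgeR adjusted p = 0.0822). These genes passed the filter through their BKO-model reads, which fixed their direction. Of the 20 genes around Fbxw24, 10 passed the filter. Tested neighbours with other names ran from -0.23 to 0.66. The Fbxw genes are close copies, so how reads split between them is uncertain.

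Other genes led the higher side singly. Dnahc8, a dynein heavy chain of cilia and sperm tails, read 49.3, 116, 169 and 101 CPM in the BKO model and 0.988, 0.651, 2.32 and 2.95 CPM in the EKO model. The groups were far apart, with a log2 difference of 6.11 (SE 0.42, edgeR adjusted p = 0.003101). Of 27 ion channel genes, 1 was called higher (3.7%, against 0.911% of all genes) and none lower (against 0.226%), with a median of -0.08. Serpina3h, a serine protease inhibitor with many close copies, read 57.996, 45.1, 15.9 and 43.9 CPM in the BKO model and 0.165, 0.0465, 0.131 and 0.281 CPM in the EKO model, with a log2 difference of 7.95 (SE 0.59, edgeR adjusted p = 0.00371).

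Adarb2, a brain adenosine deaminase relative without known editing activity, read 4.57, 7.14, 10.1 and 3.56 CPM in the BKO model and 0, 0.0929, 0 and 0 CPM in the EKO model. Of the EKO-model libraries control 2 alone had any read, and the difference was 7.93 (SE 0.94, edgeR adjusted p = 0.0169), called in 3 of the 8 fits. Scube2, a secreted protein that helps release hedgehog ligands, read 2.23, 10.5, 7.88 and 3.27 CPM in the BKO model and 0.0823, 0.139, 0.0876 and 0.0468 CPM in the EKO model, without overlap, with a log2 difference of 6.02 (SE 0.70, edgeR adjusted p = 0.0156), called in 3 of the 8 fits.

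Among widely expressed genes, the nuclear RNAs Neat1 and Malat1 were higher. Neat1, which scaffolds paraspeckles, read 3178, 1969, 2205 and 2559.9 CPM in the BKO model and 618, 796, 354 and 789.8 CPM in the EKO model, with a log2 difference of 1.96 (SE 0.29, edgeR adjusted p = 0.0302), called in 2 of the 8 fits. Malat1, a nuclear speckle RNA, read 1239, 1289.5, 1115 and 886 CPM in the BKO model and 709, 855, 567 and 617 CPM in the EKO model, with a log2 difference of 0.72 (SE 0.12, edgeR adjusted p = 0.0475), called in 0 of the 8 fits. Both were without overlap. Reads outside genes, which include intronic and intergenic ones, had a higher share in the BKO model as well, and their part in these differences was not tested.

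Genes lower in the BKO model were fewer. Tmem181b-ps, a pseudogene by its symbol, had the largest difference and read 0, 0, 0.0508 and 0.0241 CPM in the BKO model and 7.28, 19.7, 9.11 and 38.8 CPM in the EKO model. BKO-model libraries had a trace or no read and every EKO-model library had many, with a log2 difference of -9.78 (SE 0.89, edgeR adjusted p = 0.00787), called in 7 of the 8 fits, the call ending without BKO 2 (adjusted p = 0.0519). It has close copies, and its reads are uncertain.

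3 of 86 ribosomal protein genes were called lower (against 0.226% of all genes) and none higher. The median of the class was 0.17, and 10 members lay above and 9 lay lower without overlap (against 6.15% and 4.75% of all genes). Rps2 read 3.83, 4.297, 4.12 and 4.53 CPM in the BKO model and 39.8, 21.005, 26.4 and 23.1 CPM in the EKO model, with the BKO-model libraries within a narrow range, with a log2 difference of -2.71 (SE 0.23, edgeR adjusted p = 0.00725). Rps18 read 2.49, 2.82, 2.06 and 2.21 CPM in the BKO model and 26.7, 10.2, 11.3 and 10.6 CPM in the EKO model, with a log2 difference of -2.57 (SE 0.32, edgeR adjusted p = 0.0182), called in 2 of the 8 fits, and EKO control 1 stood above the other EKO-model libraries. Rpl41 read 76.7, 73.6, 55.2 and 77.3 CPM in the BKO model and 144, 113, 123 and 131 CPM in the EKO model, with a log2 difference of -0.86 (SE 0.14, edgeR adjusted p = 0.0388), called in 2 of the 8 fits. None of the 3 overlapped between models. All have processed copies elsewhere in the genome, and with reads of several alignments left out the counts cover only their unique stretches.

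Degs2, Slc38a5 and St8sia3 were also among the lower genes. Degs2, which makes phytoceramides, read 1.97, 0.803, 1.65 and 1.35 CPM in the BKO model and 5.31, 11.1, 7.14 and 9.08 CPM in the EKO model, without overlap, with a log2 difference of -2.5 (SE 0.38, edgeR adjusted p = 0.0342), called in 1 of the 8 fits. Slc38a5, an amino acid transporter that rises in proliferating mouse alpha cells, read 3.74, 6.11, 5.67 and 5.705 CPM in the BKO model and 10.7, 23.1, 22.9 and 16.6 CPM in the EKO model, without overlap, with a log2 difference of -1.79 (SE 0.29, edgeR adjusted p = 0.0414), called in 1 of the 8 fits. St8sia3, a sialyltransferase, read 14.8, 16.96, 28.98 and 25.8 CPM in the BKO model and 35.7, 42.6, 56.6 and 59.3 CPM in the EKO model, without overlap, with a log2 difference of -1.19 (SE 0.12, edgeR adjusted p = 0.009603), called in 7 of the 8 fits.

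Taar1, a receptor for trace amines that is expressed in beta cells, read 4.399, 4.14, 2.57 and 3.08 CPM in the BKO model and 8.76, 10.6, 9.76 and 8.99 CPM in the EKO model. The models did not overlap, with a log2 difference of -1.46 (SE 0.20, edgeR adjusted p = 0.0277), called in 1 of the 8 fits. Itpr2, an IP3-gated calcium channel, read 6.68, 5.31, 6.76 and 5.25 CPM in the BKO model and 13.003, 24.4, 13.001 and 14.7 CPM in the EKO model, with a log2 difference of -1.42 (SE 0.25, edgeR adjusted p = 0.0489), called in 1 of the 8 fits. Plekha7, a protein of adherens junctions, read 4.29, 3.96, 2.16 and 3.25 CPM in the BKO model and 11.9, 8.83, 9.85 and 6.74 CPM in the EKO model, with a log2 difference of -1.47 (SE 0.24, edgeR adjusted p = 0.0425), called in 1 of the 8 fits. Neither of the latter overlapped between models.

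Fam167a, whose function is little known, read 15.2, 10.02, 10.04 and 16.3 CPM in the BKO model and 50.9, 24.8, 90.4 and 59.6 CPM in the EKO model, with a log2 difference of -2.05 (SE 0.35, edgeR adjusted p = 0.0467), called in 1 of the 8 fits. 2010107G23Rik, an open reading frame without a gene name in the table, read 12.1, 14.2, 13.4 and 20.2 CPM in the BKO model and 32.1, 57.7, 46.1 and 52.4 CPM in the EKO model, with a log2 difference of -1.66 (SE 0.22, edgeR adjusted p = 0.0238), called in 2 of the 8 fits. In both, each EKO-model library exceeded each BKO-model library.

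Endothelial genes were partly lower. Of 14 tested, 2 were called lower (14.3%, against 0.226% of all genes) and none higher, and the median was -0.27. Emcn, endomucin of capillary endothelium, read 32.1, 33.1, 39.2 and 36.2 CPM in the BKO model and 76.8, 67.1, 60.5 and 87.1 CPM in the EKO model, without overlap, with a log2 difference of -1.06 (SE 0.13, edgeR adjusted p = 0.018998), called in 3 of the 8 fits. Kdr, the VEGF receptor 2, read 84.7, 85.7, 79.8 and 73.5 CPM in the BKO model and 130.2, 122, 99.3 and 112 CPM in the EKO model, also without overlap, with a log2 difference of -0.51 (SE 0.08, edgeR adjusted p = 0.0428), and was called in 0 of the 8 fits with a library left out. Cldn5, the claudin of endothelial junctions, went the other way without a call, with a log2 difference of 1.3 (SE 0.41, edgeR adjusted p = 0.197). The summed level of the list was 581, 522, 497 and 537 CPM in the BKO model and 806, 615, 582 and 729.7 CPM in the EKO model, so EKO 1 lay next to the highest BKO-model library.

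**Figure D4:**
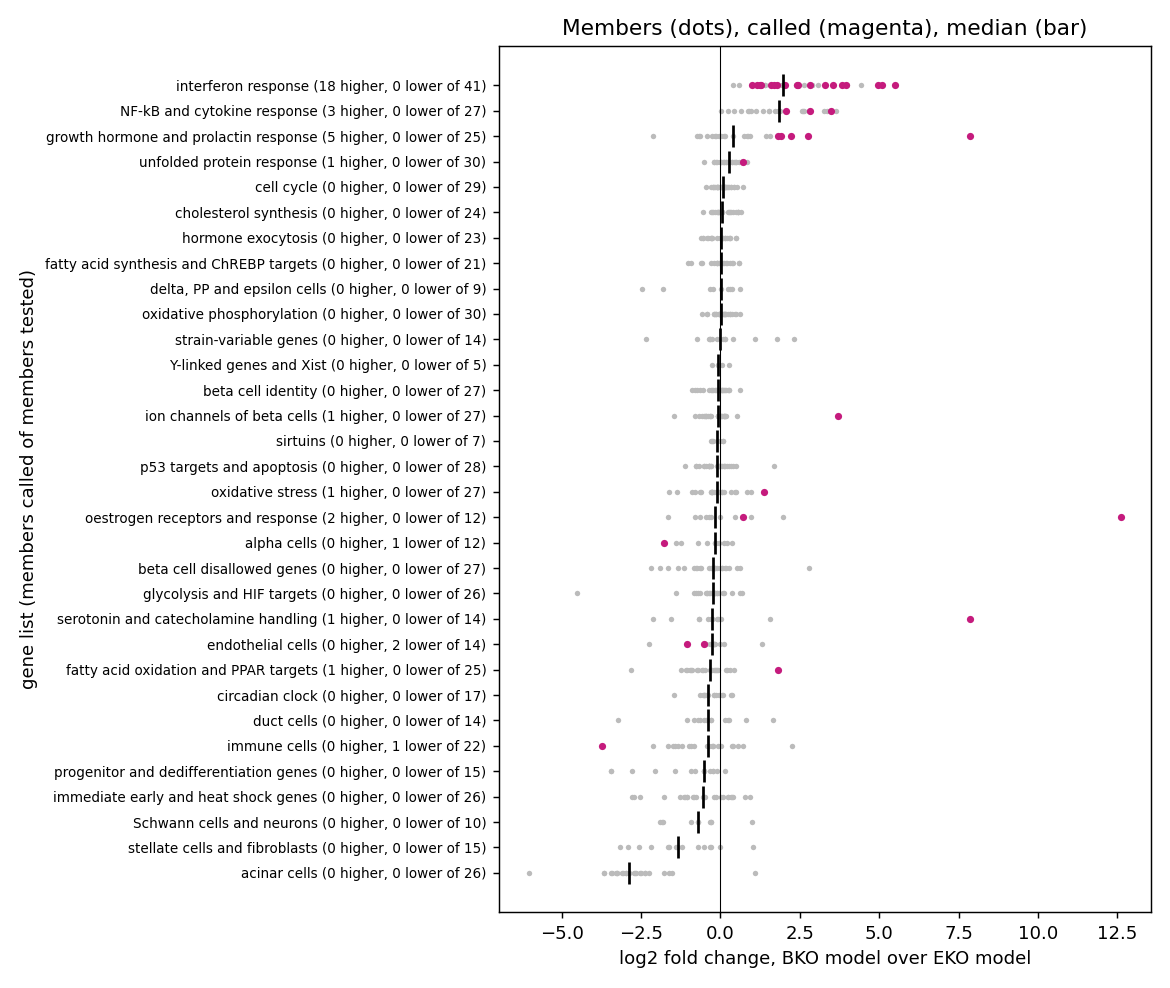
Log2 fold changes, BKO model over EKO model, of the members of 32 gene lists with at least 5 tested members, with called members in magenta and the list median as a bar. The interferon (18 of 41), growth hormone (5 of 25) and NF-kB (3 of 27) lists hold most calls, and acinar and stellate medians are the lowest without a call.

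Hormone and identity genes of the islet were not called. Ins1 read 60680.4, 58480.0, 72843 and 105207 CPM in the BKO model and 60090.0, 73330.1, 67076 and 84437 CPM in the EKO model and differed by 0.03 (SE 0.27, edgeR adjusted p = 0.966). Ins2 read 85724, 84130.5, 94468 and 143205 CPM in the BKO model and 73898, 152504, 106285 and 181444 CPM in the EKO model and differed by -0.35 (SE 0.37, edgeR adjusted p = 0.681). Both insulin genes overlapped between the models, and the sign of Ins1 depended on the libraries and covariates used. Of 27 beta cell identity genes, none was called by edgeR, and the median was -0.06. An unadjusted p under 0.05 was seen in 2 (against 16.5% of all genes), and DESeq2 called 1 (against 7.76%) and limma-voom 0.

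Neurod1, a transcription factor of endocrine cells, read 371, 353, 420.2 and 444 CPM in the BKO model and 213, 305, 241 and 271 CPM in the EKO model. It did not overlap between the models and differed by 0.62 (SE 0.14, edgeR adjusted p = 0.101). Ucn3, a maturity marker of beta cells, read 172, 247, 147 and 201 CPM in the BKO model and 184, 732, 231 and 321 CPM in the EKO model. EKO control 2 was the highest, the models overlapped, and the difference was -0.90 (SE 0.40, edgeR adjusted p = 0.324). Rfx6, a factor of endocrine development, differed by -0.56 (SE 0.22, edgeR adjusted p = 0.2796).

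Hormones of the other endocrine cells overlapped too. Gcg, which encodes glucagon, read 13187, 20509, 16167 and 16629 CPM in the BKO model and 27810.2, 36985, 22054 and 8892 CPM in the EKO model and differed by -0.43 (SE 0.38, edgeR adjusted p = 0.614). EKO control 2 and EKO 2 were the extremes of all 8 libraries. Sst, somatostatin, read 1426, 1555, 1153 and 1517 CPM in the BKO model and 1459, 1258, 927 and 1027 CPM in the EKO model, with a log2 difference of 0.29 (SE 0.14, edgeR adjusted p = 0.362), and Ppy, pancreatic polypeptide, read 2267, 2798, 1530.5 and 2441 CPM in the BKO model and 2729.8, 301, 991 and 3079 CPM in the EKO model, with a log2 difference of 0.35 (SE 0.66, edgeR adjusted p = 0.835). Of 12 alpha cell genes, 1 was called lower, Slc38a5 (8.33%, against 0.226% of all genes), with a median of -0.17. Of 9 delta, PP and epsilon cell genes, edgeR called none and limma-voom 0. An unadjusted p under 0.05 was seen in 2 (against 16.5% of all genes), and DESeq2 called 1 (against 7.76%).

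Neurog3, the gene whose regulatory sequence drives the Cre of the EKO model, read 1.23, 4.12, 1.65 and 1.71 CPM in the BKO model and 1.65, 4.93, 2.101 and 1.59 CPM in the EKO model, with overlap, with a log2 difference of -0.22 (SE 0.49, edgeR adjusted p = 0.867). None of its 16 tested neighbours, of 20, was called, with differences of -1.95 to 0.56, nor any of 17 around Sirt6, with differences of -1.30 to 0.87. Of 15 progenitor and dedifferentiation genes, edgeR called none, limma-voom called 0, and the median was -0.53. At an unadjusted p under 0.05, 5 were lower (against 16.5% of all genes in either direction), and DESeq2 called 1 (against 7.76%). Sox4, a factor of endocrine differentiation, was the nearest to the threshold, reading 12.3, 10.7, 8.62 and 12.3 CPM in the BKO model and 40.2, 17.1, 32.8 and 26.5 CPM in the EKO model, without overlap, with a log2 difference of -1.41 (SE 0.28, edgeR adjusted p = 0.0695).

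Exocrine and stromal RNA varied most within the EKO model. The summed level of 26 acinar genes was 1059, 875, 412 and 201 CPM in the BKO model and 10348, 775, 2813 and 333 CPM in the EKO model. EKO control 1 and EKO 1 were above every other library, and EKO control 2 and EKO 2 lay within the BKO-model range. The median log2 difference was -2.88, and edgeR and limma-voom called no member. An unadjusted p under 0.05 was seen in 22 (against 16.5% of all genes), and DESeq2 called 13 (against 7.76%). Try5, a trypsinogen, read 27.8, 13.95, 5.9998 and 2.96 CPM in the BKO model and 404, 23.7, 95.5 and 10.1 CPM in the EKO model, with overlap, with a log2 difference of -3.46 (SE 0.99, edgeR adjusted p = 0.163). Bhlha15, the acinar factor MIST1, went the other way, reading 94.4, 102, 121 and 103 CPM in the BKO model and 79.01, 49.3, 35.3 and 40.8 CPM in the EKO model, with a log2 difference of 1.08 (SE 0.24, edgeR adjusted p = 0.0959). Its values did not overlap and BKO-model libraries were higher.

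The 15 stellate and fibroblast genes summed to 669, 293, 419.8 and 443 CPM in the BKO model and 3552, 212, 1633 and 439 CPM in the EKO model. The same EKO-model libraries, control 1 and EKO 1, were the highest, and EKO control 2 was the lowest of all 8. The edgeR test called none, 1 had an unadjusted p under 0.05 (against 16.5% of all genes), DESeq2 and limma-voom called 0, and the median was -1.32. Col1a1, a chain of type I collagen, read 32.4, 8.54, 12.7 and 23.9 CPM in the BKO model and 536, 1.49, 204 and 19.4 CPM in the EKO model, with overlap, with a log2 difference of -3.16 (SE 1.44, edgeR adjusted p = 0.327), and its sign changed in a fit without EKO control 1 and EKO 1. Of 14 duct genes edgeR called none, 2 had an unadjusted p under 0.05 (against 16.5%), DESeq2 called 2 (against 7.76%) and limma-voom 0. Krt7, a keratin of duct cells, read 355, 359.8, 356 and 584 CPM in the BKO model and 651, 565, 689.8 and 765 CPM in the EKO model, with BKO 2 apart from its model and above the lowest EKO-model library, with a log2 difference of -0.70 (SE 0.17, edgeR adjusted p = 0.112).

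EKO control 1 and EKO 1, the libraries with the highest acinar and stromal levels, were left out together, a choice made after their values were seen. The number of calls was then 1334 of 15386 genes tested, 815 higher and 519 lower, against 171 of 15041 with them. The interferon list had 29 members called higher, the NF-kB list 20 and the growth hormone list 8, beside that rise in calls over all genes. Gbp8 differed by 5.15 and Esr1 by 15.46 on the log2 scale in that fit, against 5.1 and 12.61 with all 8 libraries. The EKO-model libraries left, control 2 and EKO 2, read 0.0465 and 0 CPM of Esr1, so its size there rests on values near 0.

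Stress and metabolic programmes gave few calls. Of 30 genes of the unfolded protein response, 1 was called higher (3.33%, against 0.911% of all genes), and 24 lay above 0 with a median of 0.27. The one called was Xbp1, a factor that raises chaperones and secretory capacity, which read 717, 766, 742 and 760.1 CPM in the BKO model and 519, 416, 434 and 466 CPM in the EKO model, without overlap, with a log2 difference of 0.70 (SE 0.11, edgeR adjusted p = 0.0375), called in 1 of the 8 fits. The chaperone Hspa5 differed by 0.50 (SE 0.27, edgeR adjusted p = 0.393) and the stress factor Ddit3 by 0.02 (SE 0.29, edgeR adjusted p = 0.982). Gpx3, a secreted glutathione peroxidase, was the sole call among 27 oxidative stress genes (3.7%, against 0.911% of all genes called higher). It read 746, 1101, 1292 and 1232 CPM in the BKO model and 479, 338, 490.2 and 345 CPM in the EKO model, without overlap. The log2 difference was 1.39 (SE 0.21, edgeR adjusted p = 0.0329), called in 2 of the 8 fits.

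Of 25 fatty acid oxidation genes, Ehhadh alone was called (4%, against 0.911% of all genes called higher), and the list's median was -0.32. Cpt1a, which admits long-chain fatty acids to mitochondria, read 40.3, 42.1, 36.1 and 41.1 CPM in the BKO model and 66.1, 54.9, 85.8 and 102 CPM in the EKO model, without overlap, with a log2 difference of -0.92 (SE 0.17, edgeR adjusted p = 0.0594), not called and of the opposite sign to Ehhadh. Ogdhl, a relative of the oxoglutarate dehydrogenase subunit, read 714, 468, 552 and 619 CPM in the BKO model and 113, 159, 176 and 183 CPM in the EKO model, without overlap, with a log2 difference of 1.91 (SE 0.19, edgeR adjusted p = 0.00974), called in 6 of the 8 fits. Of 26 glycolysis and HIF genes edgeR called none and limma-voom 0. An unadjusted p under 0.05 was seen in 4 (against 16.5% of all genes), and DESeq2 called 4 (against 7.76%). Pdk1, which restrains pyruvate oxidation, read 29.2, 23.8, 37.3 and 30.9 CPM in the BKO model and 52.5, 45.96, 46.8 and 66.6 CPM in the EKO model, without overlap, with a log2 difference of -0.81 (SE 0.15, edgeR adjusted p = 0.0577).

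The 30 oxidative phosphorylation genes, with a median of 0.02, had no edgeR call and 0 from limma-voom. They had 8 with an unadjusted p under 0.05 (against 16.5% of all genes) and 3 DESeq2 calls (against 7.76%). Ndufs3, a subunit of complex I, read 15.6, 14.2, 14.6 and 14.5 CPM in the BKO model and 21.1, 23.4, 21.4 and 23.1 CPM in the EKO model, without overlap, with a log2 difference of -0.59 (SE 0.11, edgeR adjusted p = 0.0594). Cholesterol synthesis genes (24) had no edgeR call, 7 with an unadjusted p under 0.05 (against 16.5%), 2 DESeq2 calls (against 7.76%) and 0 from limma-voom. Sqle, squalene epoxidase, read 287, 286, 295 and 260.2 CPM in the BKO model and 169.6, 196, 224 and 180.3 CPM in the EKO model, without overlap, with a log2 difference of 0.55 (SE 0.11, edgeR adjusted p = 0.0825). Txnip, which binds thioredoxin and follows glucose, read 205, 308, 411 and 523 CPM in the BKO model and 144, 239, 313 and 782 CPM in the EKO model, with a log2 difference of 0.10 (SE 0.34, edgeR adjusted p = 0.918), with overlap and a sign that depended on the libraries used.

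Immediate early and heat shock genes (26) had a median of -0.54, no edgeR call and 0 from limma-voom. They had 3 at an unadjusted p under 0.05 (against 16.5% of all genes) and 2 DESeq2 calls (against 7.76%). Egr1, an early gene of growth factor signalling, read 51.6, 87.3, 30.9 and 43.1 CPM in the BKO model and 560.0, 58.8, 648 and 59.9 CPM in the EKO model, with a log2 difference of -2.71 (SE 0.90, edgeR adjusted p = 0.212). EKO control 1 and EKO 1, the libraries high in acinar genes, were far above the other 6, and the part of tissue makeup in this was not tested. Nnt, the mitochondrial transhydrogenase with a deletion in a common substrain, read 49.2, 46.99, 24.7 and 40.3 CPM in the BKO model and 62.3, 69.4, 33.9 and 42.4 CPM in the EKO model, with a log2 difference of -0.34 (SE 0.17, edgeR adjusted p = 0.359). The models overlapped, and no library lacked Nnt reads. Of 14 strain-variable genes edgeR called none, 2 had an unadjusted p under 0.05 (against 16.5%), and DESeq2 and limma-voom called 0. The part of genetic background in the model difference was not tested.

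The cell cycle list (29 genes) had no edgeR call and no gene with an unadjusted p under 0.05, and DESeq2 and limma-voom called 0, with a median of 0.10. Of 28 p53 and apoptosis genes edgeR called none, 6 had an unadjusted p under 0.05, DESeq2 called 3 and limma-voom 0. Hormone exocytosis genes (23) likewise had no edgeR call, 3 with an unadjusted p under 0.05, 3 DESeq2 calls and 0 from limma-voom, with a median of 0.03. Of 27 genes that beta cells normally silence, edgeR called none, 3 had an unadjusted p under 0.05, DESeq2 called 1 and limma-voom 0. Over all genes tested, the shares were 16.5% at an unadjusted p under 0.05 and 7.76% by DESeq2.

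The remaining lists gave no edgeR call. Fatty acid synthesis and ChREBP genes (21) had 3 members with an unadjusted p under 0.05, 2 DESeq2 calls and 0 from limma-voom. Circadian clock genes (17) had 2 with an unadjusted p under 0.05, 2 DESeq2 calls and 0 from limma-voom, with a median of -0.38. Over all genes tested, 16.5% had such a p and DESeq2 called 7.76%. For 7 sirtuins, 5 genes of the Y-linked and Xist list, 10 Schwann cell and neuron genes and 1 red blood cell gene, no member had an unadjusted p under 0.05 and no tool made a call.

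The model difference was also taken within controls and within knockouts, from a fit of the 4 groups. All 171 genes had the same sign in both and an unadjusted edgeR p under 0.05 in both, which follows in part from their choice on all 8 libraries. Of the 200 genes with the smallest p in controls, 196 had the same sign in knockouts, and 192 of 200 the other way round. The estimate of the spread was shared. Same-numbered controls and knockouts were also correlated within each model (0.31 and 0.49), so the 2 differences are not independent. Gbp8 was the sole gene past the adjusted threshold in controls, at 5.21, and Gbp8, at 4.99, and Ambp were in knockouts.

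Whether the model difference depended on Sirt6 status was tested as an interaction. The edgeR test called 0 of 15041 genes (0%), with 152 at an unadjusted p under 0.05, limma-voom called 0 and DESeq2 called 6 (0.0399%), among them Ambp, Ank2, Lars2, Nxph1 and Ppm1e. Ambp, the precursor of alpha-1-microglobulin and bikunin, read 17.8, 21.3, 62.9 and 74.4 CPM in the BKO model and 26.95, 29.7, 925 and 954 CPM in the EKO model. In both models the libraries labelled knockout exceeded their controls, and EKO 1 and EKO 2 were the highest of all. Its log2 difference between models was -0.53 in controls and -3.78 in knockouts, with an edgeR interaction of -3.24 (SE 0.24, adjusted p = 0.0898).

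**Figure D5:**
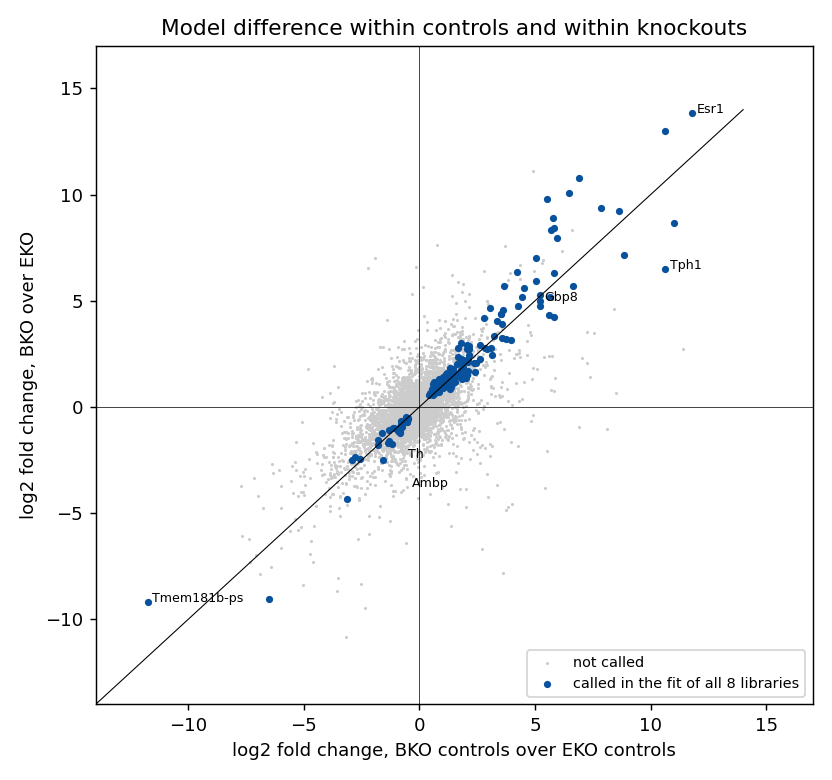
Each point is a gene, placed by its log2 fold change of BKO controls over EKO controls and of the libraries labelled BKO over those labelled EKO, with the 171 genes called in the fit of all 8 libraries in blue and the line of equal change. All 171 lie in the lower left or upper right quadrant.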

How the data were processed

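Poly(A) RNA of mouse islets was sequenced in 8 libraries, 2 for each of 4 groups, which the labels assign by genotype. The deposited values are raw counts per gene symbol, as the authors made them, and per the submitters' processing notes reads were aligned with TopHat to build mm9 and counted with HTSeq; neither source gives versions or the use of strand. Rows for reads outside genes (8.19% to 11.1% of reads), with several alignments (31.6% to 39.7%) or ambiguous were left out of library sizes and tests. Copies and antisense neighbours of a gene are therefore uncertain. Among the symbols, 25 had turned into dates.

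Genes were kept by edgeR's filterByExpr with a count minimum of 10 in the 4 groups, leaving 15041, scaled by TMM and tested with edgeR 4.0.16 (R 4.3.3) quasi-likelihood F tests on model with Sirt6 status as a block, and p-values were adjusted over all 15041 by Benjamini-Hochberg with a threshold of 0.05. SE is the absolute log2 difference over the square root of F. CPM values are TMM-scaled, and the log2 CPM behind components and list means used a prior count of 2. The interaction and the differences within controls and within knockouts came from a fit of 4 group means. DESeq2 1.42.0 and limma 3.58.1 (voom) were alternatives, beside other scalings, no filter, no block, a replicate block, an acinar covariate, thinned counts, controls or knockouts alone, and each library left out. A floor of 3 counts per library served folds against 0, and it covers counting error only. The labels do not say whether replicates are separate animals, so the p-values rest on a spread between libraries that may be technical. Replicate pairs differed beyond counting noise, with chi-square per degree of freedom of 60.6 to 196.

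The comparison and the 33 lists (689 symbols) were chosen with earlier results of these data known. Genes named were the 12 largest differences per direction among called genes without overlap and with a mean of at least 5 CPM in the higher model, the 8 smallest p, up to 4 members per list by p, and genes fixed by role. Others were chosen after their values were seen, and a few genes that the rule names are not reported here. RefSeq promoter sequences and gene order are of GRCm38.p6, not the build of the counts, and no counts were read by coordinate. The tests were tested on simulated data with 200 of 14777 genes changed between the models: edgeR made 101 calls, 7 of them false, recovering 20 of 100 genes changed 2-fold and 74 of 100 changed 4-fold. DESeq2 made 198 calls there, 64 of them false, and limma-voom 95, 5 of them false. The simulated libraries were drawn independently, so these counts do not cover the correlation of same-numbered libraries within a model.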

Additional observations from a re-analysis of the deposited data

Results flagged for a closer look

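Sets of 4 libraries were checked in each model for 81 of the genes described and for the library shares, 174 sets in all. Of these, 7 had 1 library far from the other 3 by Dixon's test, and chance flags about 1 in 20 such groups. In the BKO model, BKO 2 read 584 CPM of Krt7 against 355 to 359.8 in the others. BKO 1 read 55.2 CPM of Rpl41 against 73.6 to 77.3. BKO control 1 read 3.74 CPM of Slc38a5 against 5.67 to 6.11, and BKO control 2 read 49.9 CPM of Ripk2 against 61.8 to 62.8. In the EKO model, control 1 read 26.7 CPM of Rps18 against 10.2 to 11.3, EKO 2 read 77.7 CPM of Ddx58 against 64.4 to 66.3, and control 2 read 0.0929 CPM of Adarb2 where the others had none. In none of these, Krt7 apart, did the library that stood apart reach the range of the other model.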

How the results depend on the processing

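The 171 calls became 180 with DESeq2's size factors, 183 with scaling without hormone and acinar genes, 178 without the filter, 168 with robust dispersion, 225 without the Sirt6 term and 157 with counts thinned to 1 depth. Limma-voom gave 157. All 171 kept their direction in each alternative where they were tested, which follows in part from their choice on the same libraries. The count moved to 1167 (659 higher, 508 lower) with DESeq2, 52 (45, 7) with the 4 groups averaged, 0 (0, 0) with controls alone, where 549 had an unadjusted edgeR p under 0.05, 16 (13, 3) with knockouts alone, and 474 (265, 209) with an acinar covariate. Without EKO control 1 and EKO 1, chosen after seeing the data, it was 1334 (815, 519). With same-numbered libraries of a model summed, also chosen after seeing the data, it was 3 (3, 0), in a fit of 4 sums in place of 8 libraries, with 1 interferon, 0 NF-kB and 0 growth hormone members called and Txnip turned to -0.0023. With each library left out it ran from 18 to 309, higher genes from 15 to 251 and lower ones from 3 to 58.

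Interferon members called, 18 of 41, became 37 with DESeq2, 11 averaged, 0 in controls, 4 in knockouts, 29 without those EKO-model libraries and 6 to 26 with each library left out. The NF-kB list, 3 of 27, gave 16 with DESeq2, 6 with limma-voom, 1 averaged, 7 without the Sirt6 term, 0 in controls, 11 with the acinar covariate, 20 without those libraries and 0 to 13 with each left out. The growth hormone list, 5 of 25, gave 3 with limma-voom, 2 averaged, 0 in controls, 0 in knockouts, 8 without those libraries and 0 to 5 with each left out. The counts for these lists are to be read against the calls over all genes in the same fits, given above. DESeq2 called 6 interactions and edgeR 0. The insulin share, lower in the BKO model by a difference of -1.83 percentage points, ran from -3.76 to 0.0130 with each library left out.

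Reversals were among genes not called. Txnip (0.10) turned to -0.031 without the Sirt6 term, -0.21 in knockouts, -0.37 with the acinar covariate, -0.33 without those EKO-model libraries and -0.094 to 0.49 with each left out. Ins1 (0.03) turned to -0.17 in controls, -0.19 with the covariate, -0.10 without those libraries and -0.12 to 0.14 with each left out. Gcg turned to 0.11 in knockouts, Ppy to -0.015 in knockouts and -0.061 to 1.01 with each left out, Neurog3 ran from -0.62 to 0.19 with each left out, and Col1a1 turned to 1.40 with the covariate and 1.33 without those libraries. The cause of these changes was not tested. Over 81 genes followed, 1361 alternatives kept direction and side of the threshold, 440 lost the call, 41 gained one and 20 changed sign.

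With a replicate block edgeR called 164 genes, 134 of them among the 171, and 7 of the NF-kB list. Across the models the correlations of same-numbered deviations were 0.14, 0.41, -0.25 and -0.09, with 0.41 between the control groups. Within the BKO and the EKO model they were 0.31 and 0.49. These values do not settle which libraries, if any, the numbers pair. BKO-model libraries held 1.79 times the reads of EKO-model ones, which limits low genes in the latter.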

Other observations

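Small nucleolar RNAs and their host genes, which guide the modification of ribosomal RNA, gave no edgeR call among 57 tested. Their median log2 difference was 0.41, and 16 lay without overlap above and 1 below the EKO model, against 6.15% and 4.75% of all genes. Histone genes (19 tested) gave no call either and had a median of -0.28 with no gene free of overlap, and poly(A) selection captures both classes in part.

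Further members of the lists did not pass the test, and some of them did not overlap between models. Dnajb9, a chaperone cofactor of the endoplasmic reticulum raised by XBP1, read 420.4, 520.2, 556 and 452 CPM in the BKO model and 387, 292, 259.9 and 266 CPM in the EKO model, without overlap, and differed by 0.70 (SE 0.16, edgeR adjusted p = 0.107). Gast, the stomach hormone gastrin that fetal islets express, read 0.0657, 0.207, 0.229 and 0.0963 CPM in the BKO model and 0.3703, 0.232, 5.34 and 0.749 CPM in the EKO model, without overlap, and differed by -2.77 (SE 1.01, edgeR adjusted p = 0.244). Ppara, a nuclear receptor that raises fatty acid oxidation genes, read 0.613, 0.285, 0.585 and 0.505 CPM in the BKO model and 1.07, 0.929, 1.401 and 1.31 CPM in the EKO model, without overlap, and differed by -1.23 (SE 0.37, edgeR adjusted p = 0.183). Plin2, which coats lipid droplets, read 23.9, 26.6, 26.3 and 24.7 CPM in the BKO model and 74.6, 27.9, 69.6 and 44.8 CPM in the EKO model, without overlap, and differed by -1.09 (SE 0.30, edgeR adjusted p = 0.149). All 3 of Gast, Ppara and Plin2 were lower in each BKO-model library than in each EKO-model library. For Gast the gap lay between 0.229 CPM in BKO 1 and 0.232 CPM in EKO control 2, both low values, and EKO 1 stood highest at 5.34 CPM. Car9, a carbonic anhydrase raised in hypoxia, read 0.263, 0.285, 0.127 and 0.457 CPM in the BKO model and 17.9, 0.0929, 9.11 and 0.375 CPM in the EKO model and overlapped, and it differed by -4.51 (SE 1.5, edgeR adjusted p = 0.211). Fos, an immediate early gene, read 29.7, 50.5, 16.2 and 16.4 CPM in the BKO model and 283, 18.4, 391 and 22.1 CPM in the EKO model, and like Egr1 was highest in EKO control 1 and EKO 1, with a log2 difference of -2.78 (SE 1.09, edgeR adjusted p = 0.273).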
